A study of Solanum lycopersicum with 2 samples.

Results

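Levels of 10 genes of jasmonate synthesis and signalling were described in red ripe tomato fruit, of 34725 gene identifiers measured in all. The genes were taken by locus for their known roles, with earlier results of these data known, and each name rests on a remembered tomato locus assignment that no table used here pairs with the identifier: LOXD, AOS, AOC, OPR3, COI1, MYC2, JAZ1, JAZ2, JAZ3 and JAZ7. All 10 loci were in the deposited table. The samples were fruit of a line that overexpresses ALMT9, which encodes an aluminum-activated malate transporter, and fruit of the wild type. Flowers were tagged at opening, and fruit was picked 49 days later from 3 plants of each genotype, grown alike in both. Total RNA gave 1 library for each genotype, and the extraction notes name the overexpression line OX1. The cultivar, the promoter that drives ALMT9 and any pooling of fruit across the plants are not stated in the labels.

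Jasmonates are plant hormones made from fatty acids of plastid membranes and are best known for wound and herbivore responses, also in tomato leaves. LOXD oxygenates the fatty acid, AOS and AOC turn the product into the cyclic precursor OPDA, and OPR3 reduces OPDA in the peroxisome before side chain shortening. The active form, jasmonoyl-isoleucine, is sensed by the F-box protein COI1 together with JAZ proteins. JAZ proteins bind and repress MYC2, a transcription factor of the response. When the hormone is present, COI1 directs JAZ proteins to breakdown and MYC2 is released. JAZ genes are themselves known to be induced by the hormone, which is commonly described as negative feedback.

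Values are RPKM, reads scaled by the length of the gene model and by the reads of the library, so that levels of different genes can be compared. Depth, as worked out from the RPKM values, was 19252026 reads for the overexpression library and 19736832 reads for the wild type library. With 1 library per genotype there was no replicate check and no test. Every difference below compares these libraries, and intervals are 95% intervals for counting error only, from reads that are not independent molecules where PCR copied them. The locus entered for ALMT9, Solyc06g072910.2, had 20.5 RPKM in the overexpression library and 0.0742 RPKM, from as few as 1 read, in the wild type library. Its adjacent identifier, Solyc06g072920.1, had 39.0 RPKM in overexpression and 0.175 RPKM in wild type, and both match the direction of the label. The tissue label was checked with 5 loci entered for genes of ripe fruit. These lay between 524 and 2363 RPKM in the overexpression library and between 554 and 3979 RPKM in the wild type library. They differed between the libraries as well: the most shifted had 2363 RPKM in overexpression and 648 RPKM in wild type, and another had 2011 RPKM in overexpression and 3979 RPKM in wild type. The part of ripening stage in the differences of the jasmonate genes was not tested.

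Of the 10 jasmonate genes, 8 were above and 2 below 0 on the log2((overexpression + 1)/(wild type + 1)) scale, JAZ7 among the 8 from as few as 3 reads. Among the 17287 genes that averaged 1 RPKM or more, 8848 were above 0, and of the 9 jasmonate genes among them 7 were. At least 2-fold higher on this scale were 5 of the 10, namely AOS, AOC, OPR3, JAZ1 and JAZ2. The same fold was reached by 8.09% of the 17287 genes that averaged 1 RPKM or more over the libraries. In the band of 10 to 100 RPKM, which holds 6 of the 10 by their mean, 5.95% were at least 2-fold higher, and between 1 and 10 RPKM 10.9% were. On this scale, with 1 RPKM added, JAZ2 alone of the 10 was at least 4-fold higher, a fold reached by 1.97% of the 17287 genes. By the plain RPKM ratio AOS (5.01), OPR3 (4.04) and JAZ1 (4.04) were also above 4-fold. None of the 10 was 2-fold lower, a fold reached by 4.3% of the 17287 genes. The median log2 ratio was 1.11 over the 10 genes and 0.02 over the 17287 genes. A total of 9 of the 10 passed that minimum of 1 RPKM, and JAZ7 did not. The enzymes and JAZ1, JAZ2 and JAZ3 lay on the higher side, whereas COI1 and MYC2 lay close to their wild type level.

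**Figure D1:**
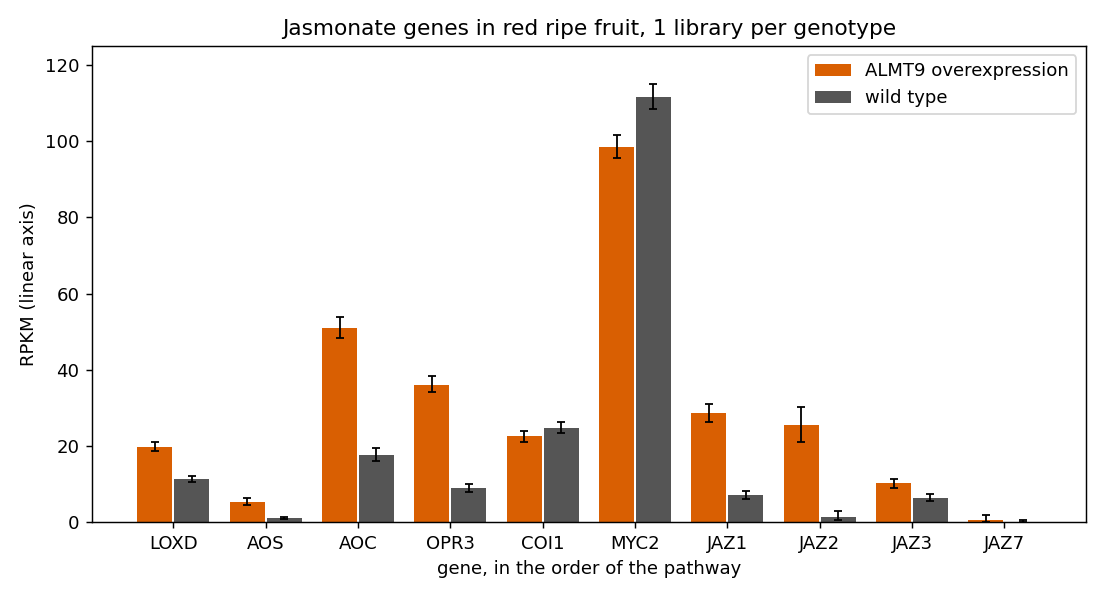
RPKM (linear axis) of the 10 jasmonate genes in the ALMT9 overexpression library (orange, left bar) and the wild type library (grey, right bar), with exact Poisson 95% intervals for counting error (a count of 0 has an upper limit of 3 reads). AOC stands at 51.1 RPKM in overexpression and 17.8 RPKM in wild type, while MYC2 is the highest gene in both, at 98.6 RPKM in overexpression and 112 RPKM in wild type.

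Loci entered for seed proteins also differed between the libraries. All 10 loci of this list, entered for storage globulins and oleosins, were below 0. At least 2-fold lower in the overexpression library were 9 of them, against 4.3% of the 17287 genes averaging 1 RPKM or more. The 10 seed loci summed to 32.7 RPKM in the overexpression library and 352 RPKM in the wild type library. Their median log2 ratio was -2.9, and none was at 0. In bulk RNA, fewer cells of a type and less RNA per cell cannot be told apart. The part of seed tissue in the differences of the jasmonate genes was not tested. Loci entered for green tissue summed to 21.6 RPKM in the overexpression library and 17.9 RPKM in the wild type library over 6 loci. In each library 1 of these 6 was at 0, and none was 2-fold apart.

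The 4 genes of jasmonate synthesis were all higher in the overexpression library. LOXD, the 13-lipoxygenase (Solyc03g122340.2, chromosome 3), had 19.9 RPKM in the overexpression library and 11.4 RPKM in the wild type library. The RPKM ratio of 1.75 had a counting interval of 1.59 to 1.92, and the log2 ratio of 0.76 stayed under 2-fold. This was the smallest ratio among the 4 enzymes. AOS, the allene oxide synthase (Solyc04g079730.1, chromosome 4), had 5.37 RPKM in overexpression and 1.07 RPKM in wild type. Its ratio was 5.01, with an interval of 3.44 to 7.47 from at least 166 reads in overexpression and at least 34 in wild type. The scale with 1 RPKM added gave a log2 ratio of 1.62, which understates the ratio of so low a gene. This AOS locus was the least abundant of the 4 enzyme loci in both libraries.

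AOC, the allene oxide cyclase (Solyc02g085730.2, chromosome 2), had 51.1 RPKM in overexpression against 17.8 RPKM in wild type. It was 2.87 times as high (interval 2.58 to 3.21), and its log2 ratio was 1.47. OPR3, the OPDA reductase (Solyc07g007870.2, chromosome 7), had 36.1 RPKM in overexpression against 8.95 RPKM in wild type. Its ratio of 4.04 had an interval of 3.55 to 4.61, and its log2 ratio of 1.9 ranked 388 from the top of 17287 genes. The intervals of AOS and OPR3 overlapped, and both lay above those of AOC and LOXD. Summed over the 4 enzymes, the level was 112 RPKM in overexpression and 39.1 RPKM in wild type, 2.87 times as high. AOC made up 45.4% of this sum in both libraries. The share of LOXD was 17.7% in overexpression and 29.0% in wild type, and that of OPR3 was 32.1% in overexpression and 22.9% in wild type. The 7 loci entered for further enzymes, described below, are outside this sum and these shares. They summed to 310 RPKM in overexpression and 76.0 RPKM in wild type.

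Perception and the central transcription factor differed little. COI1, the F-box subunit of the receptor (Solyc05g052620.2, chromosome 5), had 22.5 RPKM in the overexpression library and 24.8 RPKM in the wild type library. Its ratio of 0.908 had an interval of 0.834 to 0.99, and its log2 ratio was -0.13. MYC2 (Solyc08g076930.1, chromosome 8) had 98.6 RPKM in overexpression and 112 RPKM in wild type. The ratio was 0.883, with an interval of 0.846 to 0.922 from at least 3929 reads in overexpression and 4561 in wild type, and the log2 ratio was -0.18. Counting error does not reach 1 in either interval, but both genes lay well within 2-fold, at percentiles 38.5 (COI1) and 35.2 (MYC2) of the log2 ratios of the 17287 genes. The level of COI1 per RPKM of MYC2 was 0.228 in overexpression and 0.222 in wild type.

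Of the 4 JAZ genes, which encode repressors of MYC2, JAZ1, JAZ2 and JAZ3 were higher in overexpression by unequal amounts. For JAZ7 the smallest read numbers that fit its values were too few for a direction. JAZ1 (Solyc07g042170.2, chromosome 7) had 28.6 RPKM in the overexpression library and 7.09 RPKM in the wild type library. That is 4.04 times as high, with an interval of 3.36 to 4.87 and a log2 ratio of 1.87. JAZ2 (Solyc12g009220.1, chromosome 12) had 25.5 RPKM in overexpression and 1.4 RPKM in wild type. Its ratio of 18.2 was the highest of the 10 genes, and its log2 ratio of 3.46 ranked 53 among the 17287 genes. The interval of 8.56 to 46.1 is wide because the wild type value may rest on as few as 7 reads, against at least 124 in overexpression. Its lower end lay above the upper end of every other interval computed for the 9 jasmonate genes with reads in both libraries.

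JAZ3 (Solyc03g122190.2, chromosome 3) had 10.2 RPKM in overexpression and 6.36 RPKM in wild type. The ratio of 1.61, with an interval of 1.33 to 1.94, was near that of LOXD, and the log2 ratio was 0.61. JAZ7 (Solyc11g011030.1, chromosome 11) had 0.68 RPKM in overexpression and 0 in wild type. At the shortest gene length that gave whole reads, 229 bp, a count of 0 allows up to 0.664 RPKM. The overexpression value may rest on as few as 3 reads, and its interval of 0.14 to 1.99 RPKM includes that limit, so no fold is given. Setting JAZ7 against that limit could not change the median of the 10 log2 ratios, 1.11, because JAZ7 already lay below the middle values. Over the 9 genes that averaged 1 RPKM or more the median was 1.47. JAZ1 and JAZ2 thus stood apart from JAZ3, whose interval ended below theirs.

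**Figure D2:**
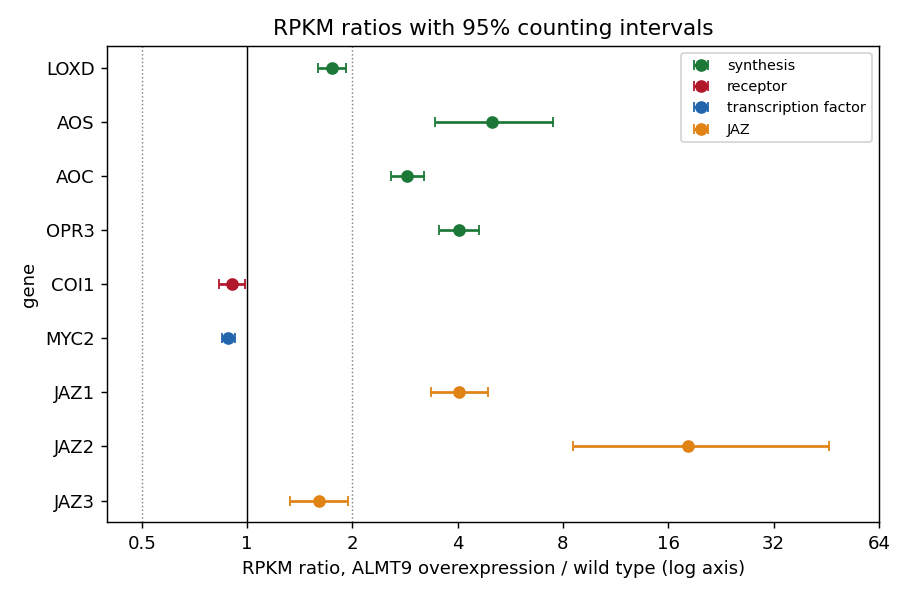
RPKM ratio of ALMT9 overexpression to wild type (log axis) for the 9 jasmonate genes with reads in both libraries, coloured by role, with exact 95% counting intervals. Dotted lines mark 2-fold. COI1 and MYC2 lie just below 1, LOXD and JAZ3 between 1 and 2, and JAZ2 lies at 18.2.

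The make-up of the summed transcripts of these 4 JAZ genes differed between the libraries. The 4 JAZ genes summed to 65.0 RPKM in overexpression and 14.9 RPKM in wild type, 4.37 times as high. JAZ2 made up 39.2% of this sum in overexpression and 9.44% in wild type. JAZ3 made up 15.7% in overexpression and 42.8% in wild type, while JAZ1 held 44.0% in overexpression and 47.7% in wild type. The 9 loci entered for further JAZ genes, described below, are outside this sum. They summed to 77.5 RPKM in overexpression and 61.9 RPKM in wild type. Summed transcripts of the 4 JAZ genes per RPKM of MYC2 were 0.659 in overexpression and 0.133 in wild type. For the 4 synthesis enzymes the level per RPKM of MYC2 was 1.14 in overexpression and 0.351 in wild type. These quotients are taken within a library and do not depend on how the libraries are scaled to each other.

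MYC2 was the most abundant of the 10 genes in both libraries, at percentile 95.6 of all identifiers in overexpression and 96.2 in wild type. The order below it differed. In overexpression the levels ran from AOC, OPR3, JAZ1, JAZ2, COI1, LOXD and JAZ3 to AOS and JAZ7. Counting intervals overlapped there for JAZ1 with JAZ2 and for JAZ2 with COI1, and for no other neighbours in the order. In wild type the levels ran from COI1, AOC, LOXD, OPR3, JAZ1, JAZ3 and JAZ2 to AOS and JAZ7. Overlapping neighbours were OPR3 with JAZ1, JAZ1 with JAZ3 and JAZ2 with AOS. COI1, second in wild type, was sixth in overexpression at a nearly equal level, below AOC, OPR3, JAZ1 and JAZ2 as well as MYC2. JAZ2 was at percentile 83.5 of all identifiers in overexpression and 53.8 in wild type, and AOS at 63.8 in overexpression and 52.0 in wild type.

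**Figure D3:**
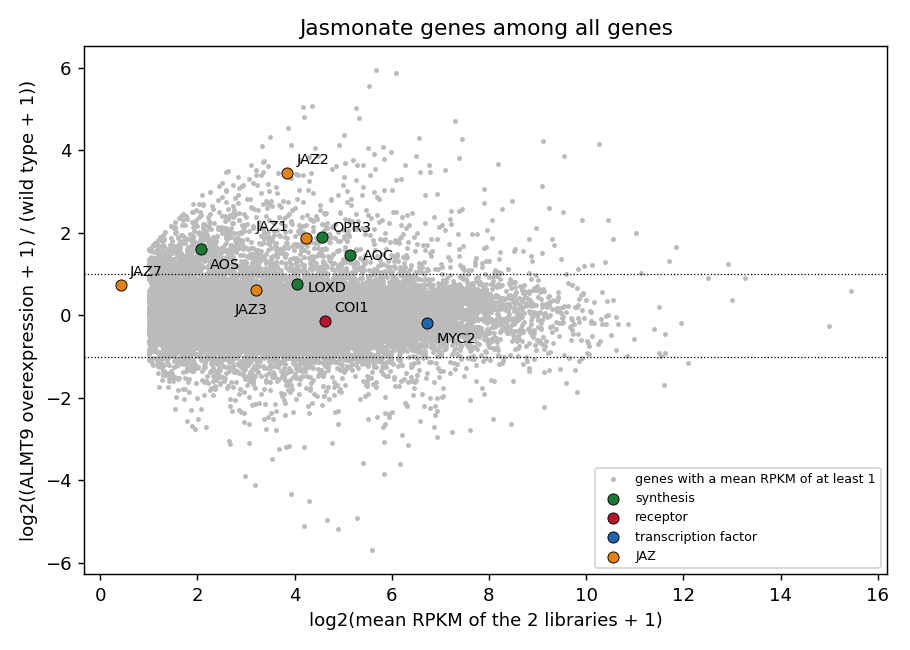
Log2((overexpression + 1)/(wild type + 1)) against log2(mean RPKM + 1) for the 17287 genes averaging 1 RPKM or more (grey) and the 10 jasmonate genes (coloured by role). Dotted lines mark 2-fold. AOS, AOC, OPR3, JAZ1 and JAZ2 lie above the upper line, and JAZ7, under 1 RPKM in both libraries, lies left of the grey cloud.

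Other loci of the pathway were taken as lists from remembered locus assignments, which were not checked against an annotation. The files do not pair these loci with names, so they are given as lists, with identifiers only for extremes. Of 9 loci entered for further JAZ genes, 5 were above 0 and 2 below, 1 was at least 2-fold higher and 1 at least 2-fold lower. The remaining 2 were at 0 in both libraries. Among the 17287 genes averaging 1 RPKM or more, 8.09% were at least 2-fold higher and 4.3% at least 2-fold lower. The median log2 ratio of the 9 further JAZ loci was 0.17, and 4 of them averaged 1 RPKM or more. The locus that was 2-fold higher had 5.69 RPKM in overexpression and 1.01 RPKM in wild type. The locus that was 2-fold lower, Solyc01g103600.2, had 1.92 RPKM in overexpression and 8.51 RPKM in wild type. Its RPKM ratio was 0.226, with an interval of 0.12 to 0.4.

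Of 7 loci entered for further enzymes of jasmonate and related oxylipin formation, 5 were above 0 and 1 below, and 1 was at 0 in both libraries. The median log2 ratio was 0.9. On the scale with 1 RPKM added, 8.09% of the 17287 genes averaging 1 RPKM or more were at least 2-fold higher, and 1 locus of this list was. That locus, Solyc11g069800.1, had 251 RPKM in overexpression and 42.9 RPKM in wild type, 5.86 times as high (interval 5.53 to 6.22). It was more abundant in overexpression than any of the 10 named genes. The only other locus of this list above 5 RPKM in both libraries had 51.3 RPKM in overexpression and 30.7 RPKM in wild type. By the plain RPKM ratio, low loci of the list were above 2-fold as well. Those with 3.72, 2.15 and 1.2 RPKM in overexpression had ratios of 2.44, 3.27 and 6.97.

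Of 7 loci entered for further regulators of the response, 6 were above 0 and 1 below, with a median log2 ratio of 0.47. At least 2-fold higher was 1 of them, Solyc07g063410.2, with 45.2 RPKM in overexpression and 16.9 RPKM in wild type. That fold was reached by 8.09% of the 17287 genes averaging 1 RPKM or more. The locus below 0, Solyc08g005050.2, had 17.9 RPKM in overexpression and 33.5 RPKM in wild type. Of 5 loci entered for wound-induced defence proteins, 2 were at 0 in both libraries and 4 were at 0 in wild type. The highest of the 5 had 1.04 RPKM in overexpression and 0.0971 RPKM in wild type, and their sum was 1.63 RPKM in overexpression and 0.0971 RPKM in wild type. None of the 5 reached a mean of 1 RPKM.

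**Figure D4:**
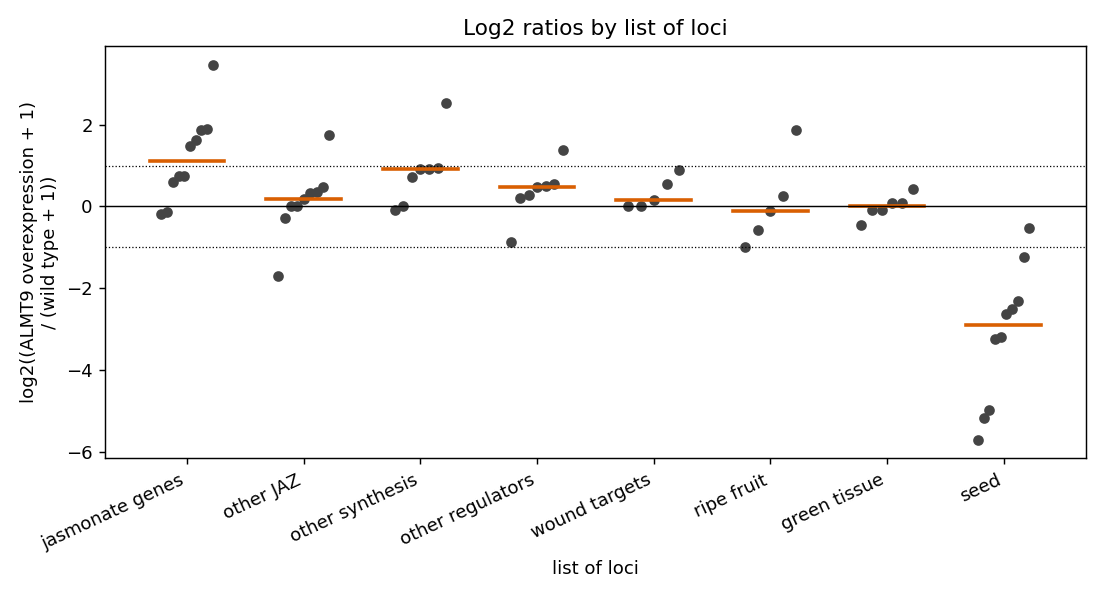
Log2((overexpression + 1)/(wild type + 1)) of each locus (points) and the median (orange line) for the 10 jasmonate genes and for the lists of other pathway loci and tissue markers. Dotted lines mark 2-fold. The jasmonate genes have a median of 1.11, and the seed loci of -2.9.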

How the data were processed

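RNA of red ripe fruit was sequenced on an Illumina platform as 1 library per genotype. The authors deposited RPKM values per gene identifier; TopHat is named in the submitters' processing notes without a version. The read counter, build, annotation version and strandedness were not given in the sources used here, nor was the handling of multiply mapped reads, so values of overlapping or near-identical genes are uncertain. Sample titles identified the columns, and the genotype label set the groups.

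Library totals and whole reads were recovered from the RPKM steps, with the shortest gene length of at least 60 bp that gave whole reads. Of 24429 genes above 0, 24426 had such a length. True read numbers can be whole multiples of these, which makes the intervals too wide. Recovery and the fold rule were tested on simulated data. Ratios have exact (Clopper-Pearson) 95% counting intervals and levels exact Poisson intervals; a count of 0 was given a limit of 3 reads. Fold was called at 2-fold on log2(RPKM + 1).

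The 10 genes and the lists were chosen with earlier results of these data known, and their locus assignments were entered from general knowledge. The rule named all 10 genes and, of other lists, only extremes. No identifier was found among the 41476 genes of the RefSeq table (assembly SLM_r2.1). By symbol, 8 of the 10 gene names were found there, all 8 on the chromosome that the identifier gives. Percentiles are among all 34725 identifiers unless stated. Alternatives covered the pseudocount, the filter, the fold and 3 scalings. Python 3.11.15, numpy 2.4.6, scipy 1.17.1, pandas 2.3.3 and matplotlib 3.10.9 were used.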

Additional observations from a re-analysis of the deposited data

How the results depend on the processing

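Another added constant or filter cannot change the sign of a log2 ratio. The 3 other scalings were too small to change it for any of the 10 jasmonate genes, so the kept signs are no check of direction. With 3 other scalings, which moved overexpression values by between -0.09 and -0.01 on the log2 scale, 5 of the 10 were at least 2-fold higher under each. With 0.5 RPKM added the number was 6, as JAZ7 reached a log2 ratio of 1.24 from as few as 3 reads against 0. With 5 RPKM added the number was 4, as AOS came to 0.77. The median log2 ratio (1.11) came to 1.37 when 0.5 RPKM was added in place of 1 and to 0.69 when 5 RPKM was added. On the log2(RPKM + 1) scale 8 genes passed at 1.5-fold, JAZ7 among them, and 1 gene, JAZ2, at 4-fold. Of the 17287 genes averaging 1 RPKM or more, 1398 were at least 2-fold higher and 744 lower. These counts were 1604 and 864 with 0.5 RPKM added, 667 and 342 with 5 RPKM added, 2819 and 2163 at 1.5-fold, and 341 and 94 at 4-fold. Under the 3 scalings, between 1233 and 1364 of the genes averaging 1 RPKM or more after scaling were at least 2-fold higher. A mean RPKM of at least 5 kept 12855 genes, of which 860 were at least 2-fold higher. That filter kept 8 of the 10 jasmonate genes, of which 4 were at least 2-fold higher. No paired analysis was possible because there is a single library on each side, which also leaves no replicate to omit. The fewest recovered reads among the 10 genes were those of JAZ7 and of JAZ2 in wild type. True numbers can be whole multiples of these.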

Other observations

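The jasmonate genes lie on 8 chromosomes by their identifiers. For each gene the 5 loci before and the 5 after it in identifier order were taken, and those averaging 1 RPKM or more were kept, 62 in all. Of these, 8 (12.9%) were at least 2-fold higher and 1 (1.61%) at least 2-fold lower, against 8.09% and 4.3% of the 17287 genes averaging 1 RPKM or more. The 8 lay near LOXD (2), COI1 (2), MYC2 (2), AOS (1) and JAZ2 (1), and the lower one near COI1. Around JAZ2, with a log2 ratio of 3.46, the 7 neighbours kept had a median of -0.17 and reached up to 1.32. The 5 neighbours kept around OPR3, at 1.9, had a median of -0.39, and the 5 around JAZ1, at 1.87, had a median of -0.14. Around MYC2, itself at -0.18, the 7 neighbours kept had a median of 0.63. JAZ3 and LOXD, which had the lowest ratios among the JAZ genes and the enzymes measured above 1 RPKM, are 15 loci apart on chromosome 3. No test was made of any of these values.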
